A study of Arabidopsis thaliana with 48 samples.

Results

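The genes encoded in the mitochondrial genome of Arabidopsis thaliana were followed across heat, excess light and salt. They were taken as the rows of the expression tables whose locus identifier starts with ATMG and that reached 1 FPKM (a fragment count corrected for transcript length and library size) in at least 3 of the 48 libraries. This left 98 of 152 such rows, out of 32824 identifiers in all, of which 21322 passed the same rule on level. Of the 54 rows outside, 30 were at 0 in every library and the highest single value was 4.003 FPKM. The 7 members just inside the rule had mean FPKM between 0.117 and 0.248, and the 7 rows just outside between 0.0565 and 0.221.

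The plant mitochondrial genome encodes a small set of subunits of the respiratory chain and of the ATP synthase, some ribosomal proteins, factors that attach heme to c-type cytochromes, and many open reading frames of unknown role. Most mitochondrial proteins, including the other subunits of the same complexes, are encoded in the nucleus. Phage-type RNA polymerases encoded in the nucleus transcribe the mitochondrial genes, and a poly(A) tail on a plant mitochondrial transcript is known to mark it for degradation. Whether the libraries selected polyadenylated RNA or removed ribosomal RNA is not given in the sources used here, so the fraction of mitochondrial RNA that was sampled is not known.

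The wild type was Col-0 (WT), and the other genotype carried a T-DNA in RAP2.3, a member of the ethylene response factor family. RNA came from whole seedlings aged 6 days, grown on plates of half-strength Murashige and Skoog medium. Control seedlings (CT) had 21 °C, no added salt and a light intensity of 50 µmol m-2 s-1. In EL the intensity was 700 µmol m-2 s-1 for 1.5 h, in HS the temperature was 33 °C for 1.5 h, and in S the medium held 50 mM NaCl during growth. EL+HS, S+EL, S+HS and the triple S+EL+HS joined these. Each of the 8 treatments had 3 biological replicates per genotype, which gave 16 groups. A single insertion line, rap2.3_1, was used.

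The transcript of RAP2.3 (AT3G16770) did not fall in the libraries labelled rap2.3: its FPKM ranged from 206 to 602 there and from 34.9 to 86.1 in WT. The genotypes are therefore named by their labels. FPKM were deposited without counts, so the depth behind a value is unknown. A listed 0 may stand for an estimate that failed. In whole seedlings, fewer mitochondria per cell, fewer cells rich in mitochondria and less RNA per mitochondrion cannot be told apart.

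Names with a role were taken for 16 of the 98 members, from the notes of the RefSeq annotation of TAIR10.1. The other 82 are given by identifier only. Some of these have a role as well. A note gives ATMG01090 as ATP synthase 9, and lists used here place others in the respiratory complexes or the ribosome. Rankings by role cover the 16 only. Fold changes are differences of log2(FPKM + 1), which understates the change of genes with low FPKM, and most members were low. Under CT, between 16 and 29 members reached 1 FPKM in a library, while in the EL+HS libraries between 64 and 85 did.

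The FPKM assigned to the mitochondrial genes were higher with heat and lower with salt. Many of these genes have a near-identical copy in chromosome 2, described further on, and the values cannot tell transcripts of the copies apart. The identifiers ATMG00020, ATMG01380 and ATMG01390 were left out of the summed level together. ATMG01380 was listed at 0 in 40 libraries and between 595 and 1172 FPKM in the other 8, all 8 of them heat libraries. ATMG00020, at 10.62 to 116.5 FPKM over all libraries, and ATMG01390, at 13.47 to 86.85 in WT, had no such jump. All 3 identifiers stay in the counts of members that follow. The summed FPKM of the other 95 members was 52.4, 60.8 and 50.0 in the 3 WT CT libraries. It was 563, 355 and 243 under HS and 697, 864 and 823 under EL+HS. All 6 heat libraries without salt lay above the control libraries, and the EL+HS libraries lay above the HS libraries. With salt alone the sums were 34.6, 22.2 and 28.7, below each WT CT library, and under S+EL they were 37.03, 37.4 and 48.9. Under S+HS they were 201, 245 and 247 and under S+EL+HS 312, 218 and 175. Salt-grown seedlings under heat therefore stood above CT, and 5 of their 6 values were 247 or less, near or under the lowest HS value of 243. Under EL alone the sums were 68.0, 109 and 201, all above CT and far apart.

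The libraries labelled rap2.3 likewise had their lowest sums with salt but no heat and their highest under EL+HS. Their sums were 71.0, 88.0 and 65.7 under CT, 692, 419 and 351 under HS and 1204, 1188 and 1331 under EL+HS. The EL+HS values lay above all 3 WT values of that treatment. Under S they were 41.2, 39.7 and 22.4, under S+EL 24.7, 30.5 and 52.2, under S+HS 173, 225 and 194 and under S+EL+HS 335, 294 and 297. Under EL they were 69.8, 197 and 398, so 1 library was within the control range while the other 2 were far above it. As a share of all FPKM the mean over the 95 members was 0.00684% in WT CT and 0.155% in the rap2.3 EL+HS group. The summed FPKM of the plastid-encoded rows gave a different order: it was between 367 and 875 in the 12 WT heat libraries and between 320 and 2047 in the 12 without heat. It was 2538, 4001 and 4195 in the rap2.3 EL libraries, against 803, 566 and 628 in WT EL.

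**Figure D1:**
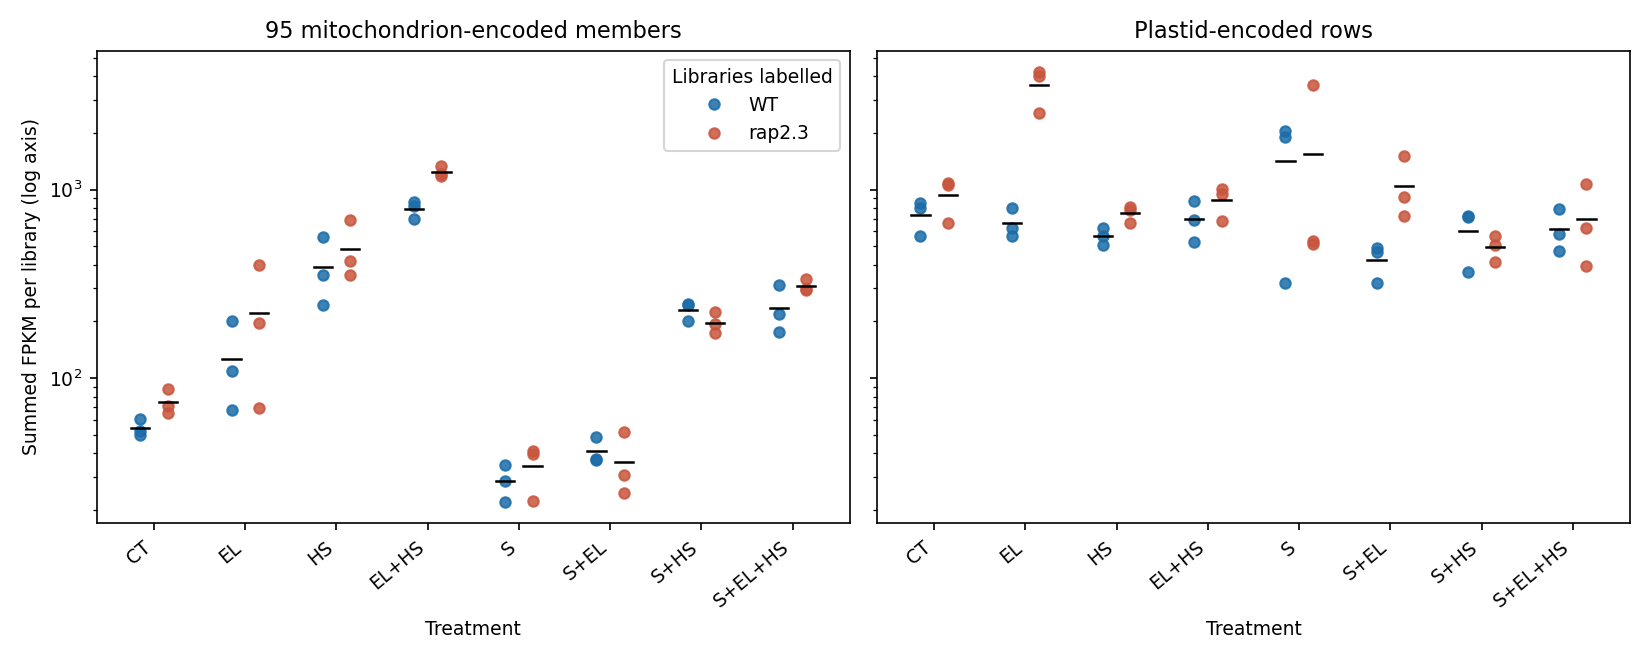
Summed FPKM per library (log axis) of 95 mitochondrion-encoded members (left) and of the plastid-encoded rows (right) in the 8 treatments, with 3 libraries per genotype as points and their mean as a line. The mitochondrial sums are lowest in the S and S+EL groups and highest under EL+HS, where the rap2.3 libraries reach 1188 to 1331, and the plastid sums do not follow this order.

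Heat was compared as a main effect, the mean of the 4 treatments with heat against the mean of the 4 without, with limma over the 24 libraries of a genotype and Benjamini-Hochberg adjustment over all rows tested. In WT 76 of the 98 members had enough FPKM to be tested, and 66 were higher and 0 lower, where 18.8% of all rows tested were called higher. In the libraries labelled rap2.3, 87 were tested and 72 were higher and 0 lower, with 16.2% of all rows called higher. Of the tested members 47 in WT and 54 in rap2.3 passed the filter only because of the heat libraries. The filter favours a higher value with heat in such rows, so those counts are an account of the rows and not support. Among the members that passed on the 12 libraries without heat alone, 26 of 29 in WT and 30 of 33 in rap2.3 were higher. Their median log2 differences were 1.55 and 1.50, where the median over all rows tested was -0.06 and -0.10. The 9 members at 1 FPKM or more in all 3 WT CT libraries were all higher, by 1.13 to 3.43. The corresponding 13 members of rap2.3 were all higher as well, by 1.28 to 3.66. Of the members with a named role 6 passed the filter without heat libraries, in each genotype: ATMG00180, ATMG00480, ATMG00980, ATMG00990, ATMG01080 and ATMG01190. For the others a higher value with heat follows in part from the filter, and their differences are given as a description.

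On the log2(FPKM + 1) scale, subunits of the ATP synthase had the 3 largest heat differences among the 16 members with a named role. That scale understates the change of members with low FPKM. As ratios of mean FPKM, WT HS to CT, L5 (ATMG00210, 29.5), S7 (ATMG01270, 14.1) and NAD3 (ATMG00990, 10.95) stood above ATP8 (10.5), ATP9 (7.72) and ATP1 (6.82). The first 3 had CT means of 0.104, 0.0878 and 0.526 FPKM. In rap2.3 NAD3 (17.1) stood above too, but L5 (4.55) and S7 (6.46) stood below ATP8 (8.90) and ATP9 (8.23). ATP9 (ATMG01080), which forms the proton-driven ring of the enzyme, was at 6.31, 7.22 and 1.90 FPKM in WT CT, at 50.5, 34.96 and 33.6 under HS and at 47.8, 45.9 and 52.9 under EL+HS. Its 6 heat libraries without salt did not overlap the control libraries. Across the treatments its log2 difference with heat was 2.71 ± 0.19 (SE) in WT (limma adjusted p = 5.66e-10) and 2.47 ± 0.23 in rap2.3 (adjusted p = 4.91e-08). In rap2.3 it was at 6.91, 3.43 and 5.72 FPKM under CT and at 49.3, 35.1 and 47.8 under HS, again without overlap.

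ATP1 (ATMG01190), the catalytic-head subunit alpha, was at 1.31, 1.29 and 1.39 FPKM in WT CT, at 13.5, 8.24 and 5.43 under HS and at 16.1, 19.9 and 20.6 under EL+HS. The 12 WT heat libraries, from 5.43 to 20.6 FPKM, all lay above the 12 without heat, from 0.711 to 5.16, with the nearest values close together. The heat difference was 2.01 ± 0.11 in WT (limma adjusted p = 4.56e-11) and 1.95 ± 0.19 in rap2.3 (adjusted p = 8.51e-08). In the libraries labelled rap2.3 it was at 2.52, 1.63 and 2.25 FPKM under CT and at 26.3, 25.3 and 30.2 under EL+HS. ATP8 (ATMG00480), a subunit of the membrane part, was at 0.861, 0.953 and 0.887 FPKM in WT CT and at 11.8, 11.9 and 4.85 under HS, all higher than control. Its heat difference was 2.03 ± 0.14 in WT and 2.10 ± 0.20 in rap2.3. ATP6-1 (ATMG00410), which carries the proton channel beside the ring, went from 0.506, 0.315 and 0.610 FPKM in WT CT to 5.89, 3.77 and 1.87 under HS. The groups did not overlap, and the difference with heat was 1.50 ± 0.13 in WT and 1.47 ± 0.12 in rap2.3.

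Members for ribosomal proteins and for cytochrome c maturation were also higher with heat. Of the 5 ribosomal protein members named from the notes all 5 were called higher in both genotypes, but of these S12 alone passed the filter without heat libraries. The list of ribosomal proteins used here also holds ATMG00080 and ATMG00090. ATMG00080 was called higher and passed that filter in both genotypes, and ATMG00090 did so in rap2.3. For L5 (ATMG00210), of the large ribosomal subunit, the 12 WT heat libraries lay between 1.18 and 7.67 FPKM and the other 12 between 0 and 1.08, a log2 difference of 1.66 ± 0.12. S12 (ATMG00980), of the small subunit, was the most abundant of the 5, at 2.68, 3.37 and 1.42 FPKM in WT CT and 12.8, 14.01 and 8.41 under HS, and its difference was 1.39 ± 0.26. S4 (ATMG00290) and S7 (ATMG01270) differed by 0.86 ± 0.12 and 0.57 ± 0.21 in WT, and the L2-like OB-fold protein (ATMG00560) by 0.88 ± 0.13. The highest WT value of these 3 was 4.32 FPKM. The call for S7 in WT was lost when any of 8 libraries was left out in turn, with limma adjusted p up to 0.0707. The maturation factor ccb452 (ATMG00180), which acts in heme attachment, was at 0.656, 1.35 and 0.724 FPKM in WT CT and at 7.10, 9.34 and 6.99 under EL+HS, with a heat difference of 1.34 ± 0.13. A second cytochrome c assembly protein (ATMG00960) differed by 0.77 ± 0.15.

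Among the electron transport subunits named from the notes, NAD3 had the highest mean over the 48 libraries, 2.43 FPKM, and apocytochrome b the lowest, 0.445. NAD3 (ATMG00990), of the membrane arm of complex I, was at 0, 1.58 and 0 FPKM in WT CT and at 5.43, 6.32 and 5.51 under HS, without overlap, and its heat difference was 1.21 ± 0.21 in WT and 1.49 ± 0.21 in rap2.3. The complex I members NAD1A (ATMG01275) and NAD2B (ATMG01320) differed by 0.77 ± 0.27 and 0.59 ± 0.10 in WT. The call for NAD1A in WT was lost when any of 4 libraries was left out in turn, with limma adjusted p up to 0.0527. COX3 (ATMG00730), a core subunit of complex IV, was at 0.225, 0.357 and 0.271 FPKM in WT CT and at 1.25, 0.258 and 0.204 under HS, so 1 HS library lay above control and 2 within or below it. Its main effect was 0.55 ± 0.11 in WT and 0.39 ± 0.11 in rap2.3. The list of complex IV used here also holds ATMG00160 and ATMG01360, both called higher with heat in both genotypes. ATMG00160, with a mean of 8.5 FPKM over the 48 libraries, passed the filter without heat libraries in each genotype, and ATMG01360 did not. In WT the median of ATMG00160 was 9.43 FPKM with heat and 2.13 without, with some overlap. Apocytochrome b (ATMG00220), of complex III, was too low to be tested in WT and differed by 0.52 ± 0.09 in rap2.3.

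**Figure D2:**
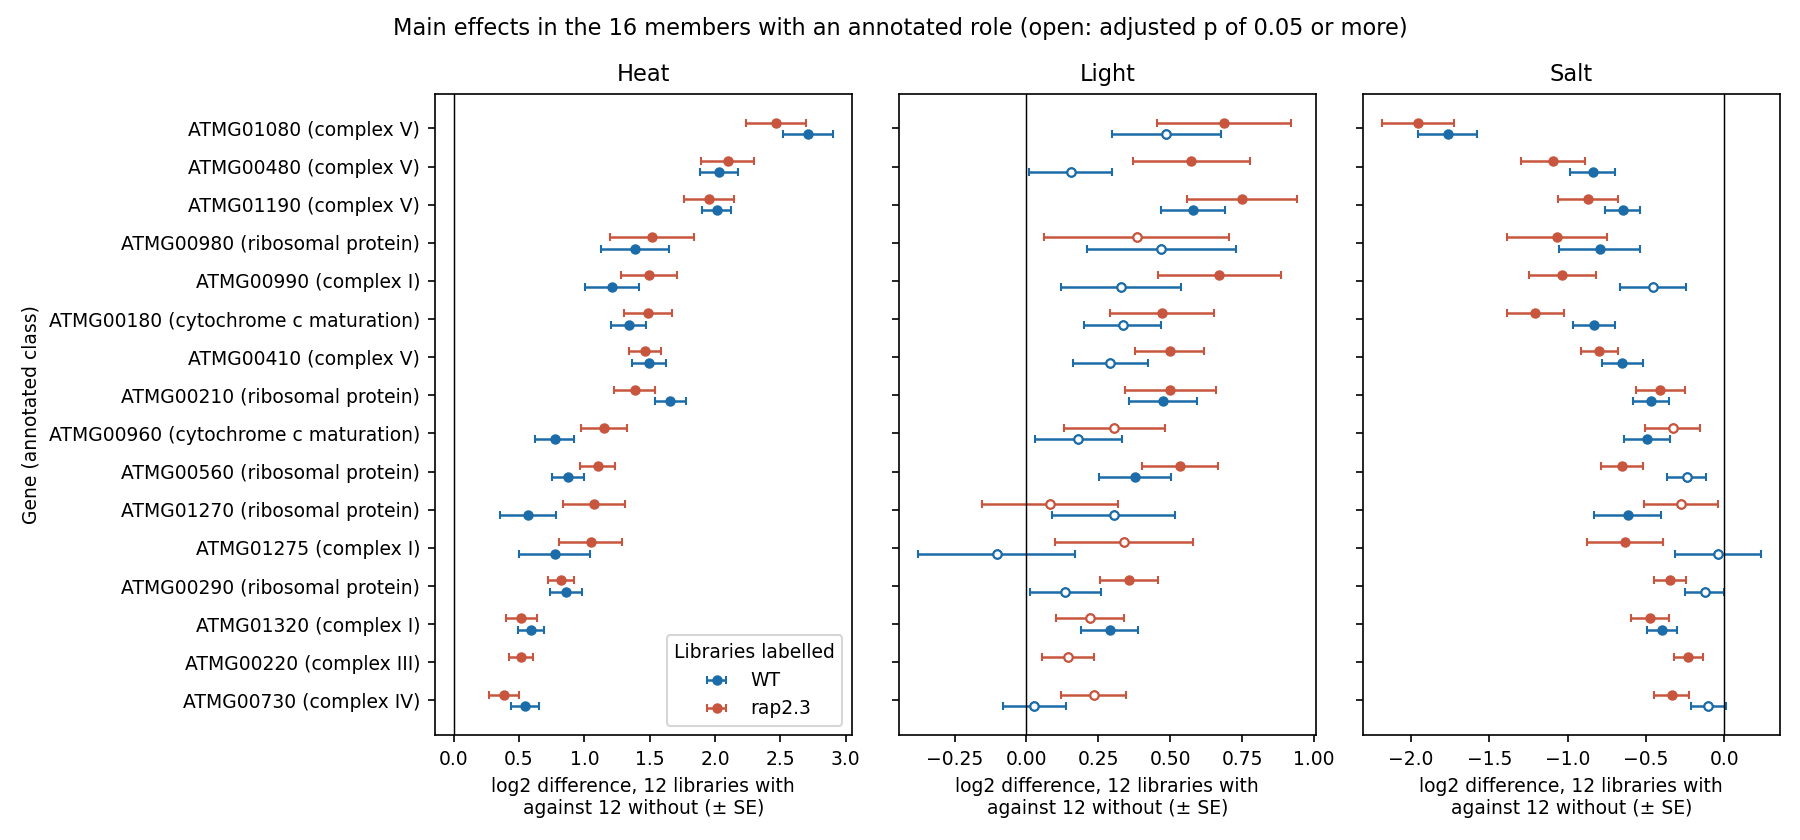
Main effects of heat, light and salt on the log2(FPKM + 1) scale (± SE, 12 libraries with the stressor against 12 without) for the 16 members with a named role, in WT and in the libraries labelled rap2.3; filled points passed an adjusted p of 0.05. Heat differences run from 0.39 for ATMG00730 in rap2.3 to 2.71 for ATMG01080 in WT, on a scale that understates the change of members with low FPKM. All salt differences are below 0, though some did not pass.

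Among members without a named role, ATMG00170 and ATMG00620 had the highest mean FPKM apart from the 3 identifiers set aside above, 37.7 and 34.8 over the 48 libraries, and the largest heat differences in WT, 3.43 ± 0.29 and 3.53 ± 0.31. ATMG00170 was at 3.78, 5.52 and 4.23 FPKM in WT CT, at 65.2, 25.6 and 31.04 under HS and at 83.1, 162 and 152 under EL+HS. ATMG00620 was at 4.92, 4.98 and 0.755 FPKM in WT CT and at 84.7, 126 and 178 under EL+HS. For both, every heat library without salt lay above every control library. ATMG00630 had the next largest difference in WT, 2.98 ± 0.44, and was at 0 in all 3 WT CT libraries. ATMG00690 rose by 2.84 ± 0.19 in WT, and its 12 heat libraries, from 7.36 to 28.8 FPKM, lay above the other 12, which reached 6.67. Of the 98 members 10 were separated completely in this way in WT, where 1.16% of all rows were, and 0 were in rap2.3, where 0.703% of all rows were. Of the 10, ATMG00210, ATMG00290, ATMG00410, ATMG00513 and ATMG01170 did not pass the filter on the 12 WT libraries without heat. Their separation follows in part from the filter, and the count is a description. The rap2.3 EL libraries, which spread from control level upwards, were among the 12 without heat there.

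**Figure D3:**
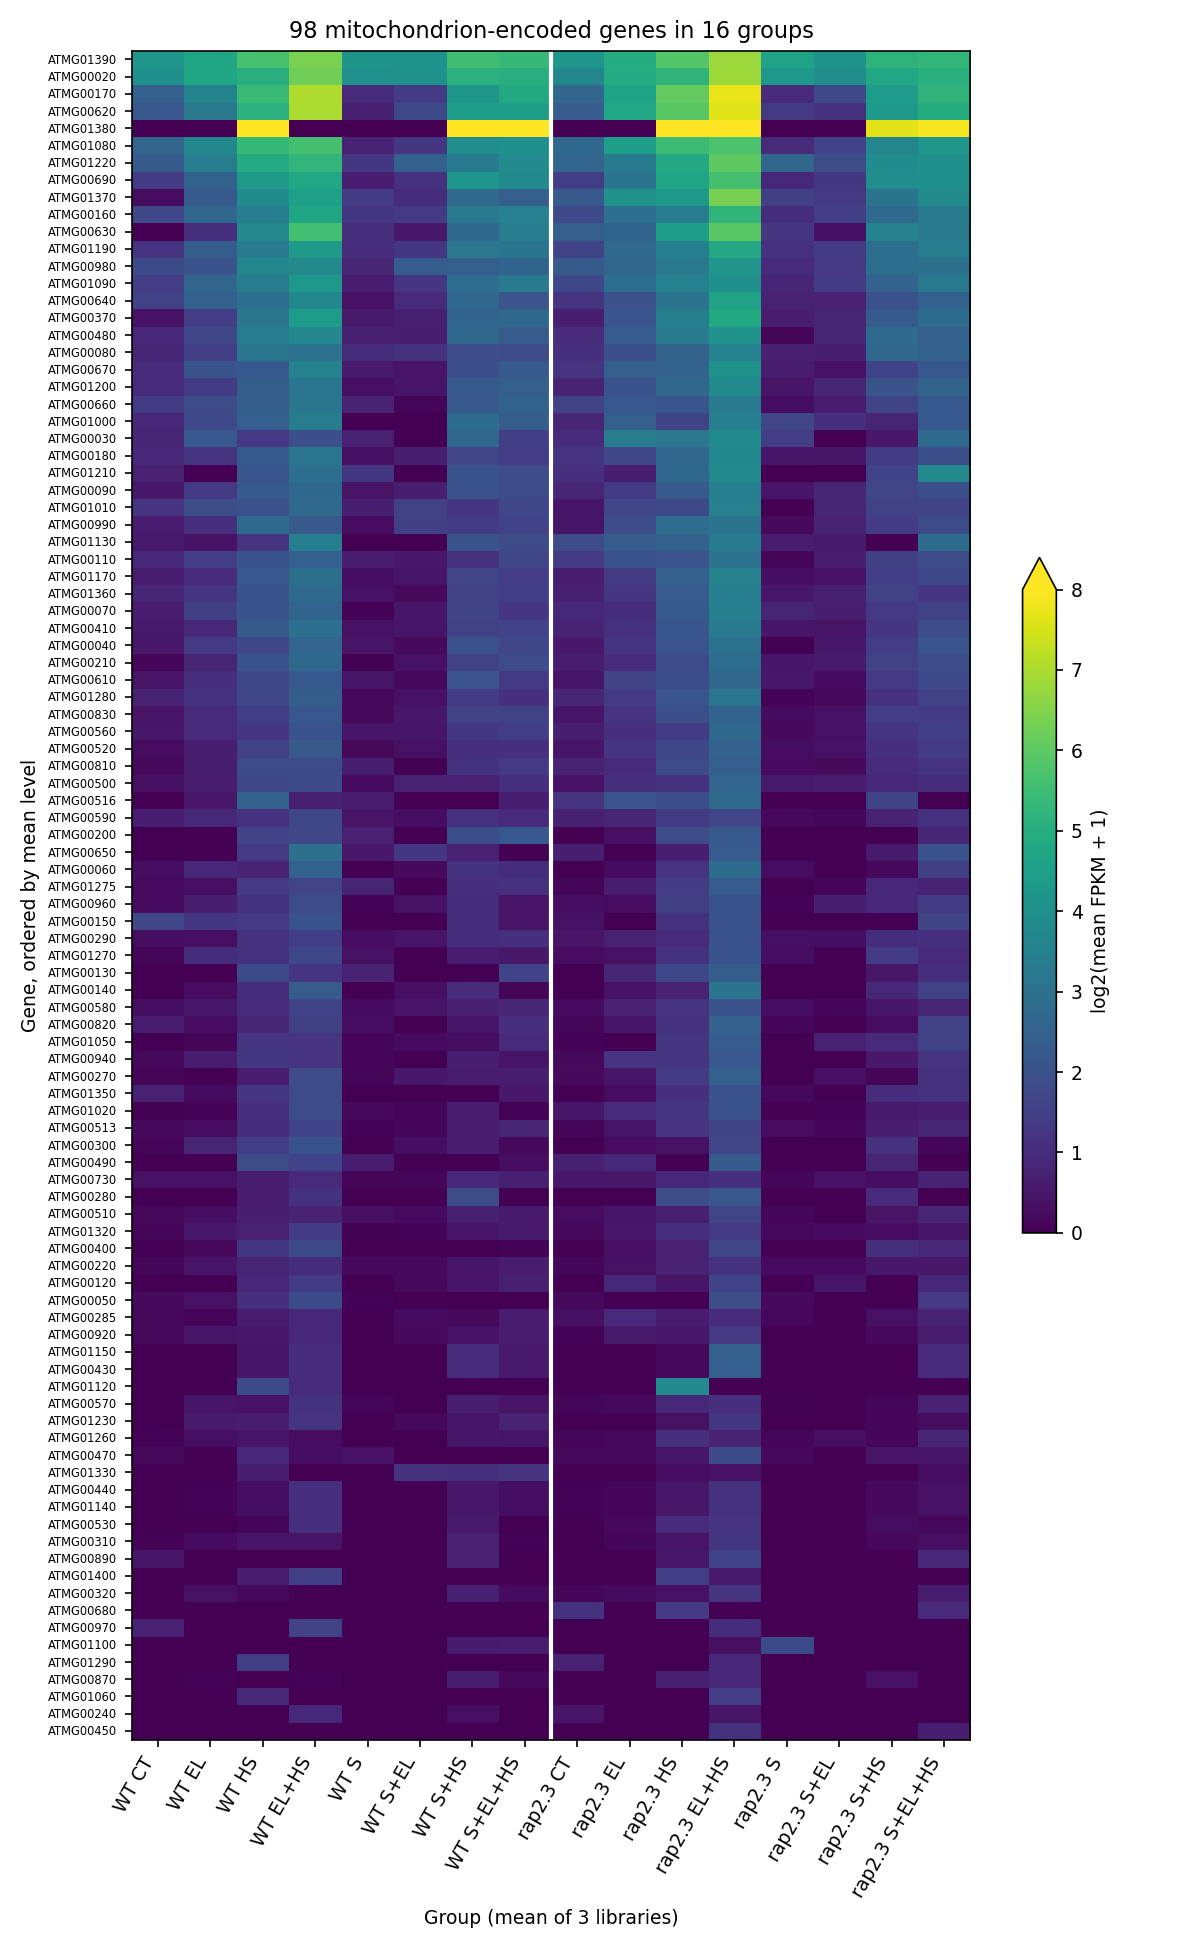
Mean level of each of the 98 members in the 16 groups as log2(mean FPKM + 1), members ordered by their mean over groups and the white line parting WT (left) from rap2.3 (right). The bright columns are the heat groups, most of all EL+HS, and ATMG01380 is at 0 outside 8 heat libraries.

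Against CT, each treatment with heat gave more members higher than lower. In WT 43 members were higher under HS (15% of all rows called higher), 61 under EL+HS (12%), 36 under S+HS (26%) and 31 under S+EL+HS (23.6%), with 0 lower in each. In rap2.3 the counts were 39 under HS (15.7%), 73 under EL+HS (11.1%), 16 under S+HS (27.2%) and 37 under S+EL+HS (22.5%). The S+HS count of rap2.3, of 87 tested, is a smaller share than that of all rows. Members that passed the filter through heat libraries are among all these counts. Of the 9 members at 1 FPKM in all WT CT libraries, 9 were higher under HS, 9 under EL+HS, 8 under S+HS and 8 under S+EL+HS, and of the 13 of rap2.3, 11, 13, 4 and 10. These comparisons share the CT libraries of a genotype.

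Excess light alone moved few members. In WT 6 were higher under EL, where 10% of all rows were, among them ATP1 (ATMG01190) at 3.04, 4.11 and 5.16 FPKM, each above the 3 control values, by 1.11 ± 0.23 (limma adjusted p = 0.00174). In rap2.3 6 were higher under EL, where 7.61% of all rows were, among them ATP9 (ATMG01080) at 5.63, 21.9 and 35.1 FPKM, which overlapped CT. The share of members called is near that of all rows in both. The WT count fell to 1 without CT replicate 1, to 3 without CT replicate 3 and to 2 without EL replicate 3. The rap2.3 count was 24 without EL replicate 1, the library at control level, 2 without EL replicate 2, 2 without EL replicate 3 and 3 without CT replicate 1.

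Averaged over the 4 treatments with excess light, 14 members were higher in WT, where 13.3% of all rows were, and 43 in rap2.3, where 12.3% were. None was lower in either (limma; at an unadjusted p under 0.05, 29 members passed in WT and 47 in rap2.3). ATP1 (ATMG01190) differed by 0.58 ± 0.11 in WT and 0.75 ± 0.19 in rap2.3. Of the called members 12 in WT and 32 in rap2.3 passed the filter on the 12 libraries without excess light. The largest called difference in WT was that of ATMG00620, 0.85 ± 0.31 (adjusted p = 0.0494), a call lost in 19 of its alternatives. In rap2.3 all 4 named ATP synthase members passed, by 0.50 to 0.75. The light effect itself was not found to differ between the genotypes for any member (limma interaction, 0 of 98 called, 7 at an unadjusted p under 0.05, 0% of all rows called). The WT count depends on single libraries: it was 25 without HS replicate 1, 7 without HS replicate 2, HS replicate 3 or EL+HS replicate 2, 8 without S replicate 2 or S+HS replicate 1, and 9 without CT replicate 3, EL replicate 3, EL+HS replicate 3, S+EL replicate 3 or S+EL+HS replicate 1.

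Salt was associated with lower members over the 4 treatments that had it. In WT 41 of 76 tested members were lower and 0 higher, where 12.5% of all rows were called lower, and in rap2.3 59 of 87 were lower and 0 higher, where 12.6% were. Of the tested members 26 in WT and 39 in rap2.3 did not reach the filter on the salt libraries alone. The filter favours a lower value with salt in such rows, so those counts too are an account of the rows. Among the members that passed on the 12 salt libraries alone, 30 of 50 in WT and 39 of 48 in rap2.3 were lower and 0 higher. Their medians were -0.62 and -0.81, against 0.11 and 0.15 over all rows. The 9 members at 1 FPKM in all WT CT libraries were all lower, by 0.44 to 1.77 on the log2 scale, and so were the 13 of rap2.3, by 0.61 to 2.17, though the CT values that chose them enter this comparison.

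ATP9 (ATMG01080) was the named member with the largest salt difference, -1.77 ± 0.19 in WT (limma adjusted p = 4.12e-07) and -1.96 ± 0.23 in rap2.3 (adjusted p = 8.78e-07). In WT S it was at 0.568, 0.577 and 0.917 FPKM, below the CT values of 6.31, 7.22 and 1.90. Under S+HS it was at 11.3, 13.2 and 18.4 FPKM, below the HS values, which started at 33.6. All 4 named ATP synthase members passed in both genotypes, with ATP1 (ATMG01190) at -0.65 ± 0.11 in WT. ATP1 was at 1.00, 0.711 and 1.31 FPKM in WT S, overlapping CT, and at 7.35, 8.38 and 8.55 under S+HS, inside the range of HS. Under S+EL+HS it was at 8.77, 6.61 and 7.33, below the EL+HS values, which started at 16.1. Of the named complex I members, NAD3 (ATMG00990) passed the filter on the salt libraries of rap2.3 and was lower there, by 1.03 ± 0.21 on the log2 scale, and in WT its difference of -0.45 ± 0.21 missed the threshold. ATMG01320 in both genotypes and ATMG01275 and COX3 (ATMG00730) in rap2.3 were also called lower, but did not reach the filter on the salt libraries alone.

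Salt alone, and salt with light, gave few calls. In WT 2 members were lower under S (5.17% of all rows called lower) and 2 under S+EL (12.8%). In rap2.3 2 were lower under S (5.22%) and 1 under S+EL (11.6%). With a pseudocount of 0.1 in place of 1 the counts were 7, 7, 10 and 6, so the few calls hold for the pseudocount of 1. ATP9 (ATMG01080) was among the calls each time, by 1.73 ± 0.38 under S in WT and 1.67 ± 0.46 in rap2.3. The WT S count was 1 without CT replicate 2, CT replicate 3, S replicate 2 or S replicate 3, and the WT S+EL count was 1 without S+EL replicate 1. The rap2.3 S count was 0 without CT replicate 1 and 1 without S replicate 1. The rap2.3 S+EL count was 0 without CT replicate 1, S+EL replicate 1 or S+EL replicate 2 and 2 without CT replicate 2 or S+EL replicate 3. With excess light in place of salt, the heat response differed between light levels for 0 members in WT (limma, 2 at an unadjusted p under 0.05, 6.01% of all rows called higher) and for 6 of 87 in rap2.3, all larger in excess light, a share near the 4.51% of all rows. None of the 6 passed the filter without heat libraries. The heat response was not found to differ between salt and no salt for any member in WT or rap2.3 (limma, 0 called), with 0.135% and 0.00971% of all rows called higher. At an unadjusted p under 0.05, 15 of 76 members passed in WT and 19 of 87 in rap2.3. Of all rows, 2577 of 20744 and 2044 of 20592 did. With median-of-ratios scaling the medians of the members were -0.31 and -0.49, a smaller response on salt.

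The nucleus-encoded partners moved differently. Of 42 nuclear genes of the respiratory chain and ATP synthase, all 42 of which were tested, 10 were higher and 10 lower with heat in each genotype. The median was 0.02 in WT and -0.04 in rap2.3. Of all rows 18.8% were called higher with heat in WT and 16.2% in rap2.3, so the share of these genes called higher was not far above it. With median-of-ratios scaling 14 of the 42 were higher and 9 lower in WT, and 14 higher and 5 lower in rap2.3. Of all rows, 4620 were higher and 5240 lower of 20744 in WT, and 4620 higher and 5334 lower of 20592 in rap2.3. CYTC-2 (AT4G10040), a cytochrome c, was the largest increase, from 31.4 ± 6.92 FPKM in WT CT to 103 ± 12.8 under HS (mean ± SD, n = 3). SDH1-1 (AT5G66760), a subunit of succinate dehydrogenase encoded only in the nucleus, was the largest decrease with heat, -0.54 in WT and -0.65 in rap2.3. With salt 38 of the 42 were higher in WT and 39 in rap2.3, with 0 lower, where 33.4% and 41.1% of all rows were called higher. ATP3 (AT2G33040), the gamma subunit of the ATP synthase, was at 151 ± 8.88 FPKM in WT CT and 231 ± 20.8 in WT S. With median-of-ratios scaling the counts with salt were 35 higher and 0 lower in WT and 32 higher and 1 lower in rap2.3.

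Of 22 nuclear genes for transcription, splicing, editing and processing of mitochondrial RNA, 12 were higher and 2 lower with heat in WT. In rap2.3 11 were higher and 3 lower. The shares of all rows called higher with heat were 18.8% in WT and 16.2% in rap2.3. MORF1 (AT4G20020), an RNA editing factor, was at 14.6 ± 2.09 FPKM in WT CT and 61.9 ± 4.34 under HS. The putative RNA helicase PMH1 (AT3G22310) was at 7.005 ± 1.26 and 23.2 ± 7.80 FPKM. The phage-type RNA polymerase MGP3 (AT1G68990) was at 7.80 ± 0.56 FPKM in WT CT and 14.5 ± 3.88 under HS. With salt 7 were higher and 1 lower in WT and 12 higher and 0 lower in rap2.3, where 33.4% and 41.1% of all rows were called higher. With median-of-ratios scaling 2 were higher and 1 lower in WT, and 3 higher and 1 lower in rap2.3. The counts with salt are a description. The plastid-encoded rows tested, 62 in WT and 68 in rap2.3, had 2 higher and 6 lower with heat in WT and 0 higher and 26 lower in rap2.3. With median-of-ratios scaling 5 were lower in WT and 23 in rap2.3. Of all rows, 5240 of 20744 in WT and 5334 of 20592 in rap2.3 were lower with that scaling.

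**Figure D4:**
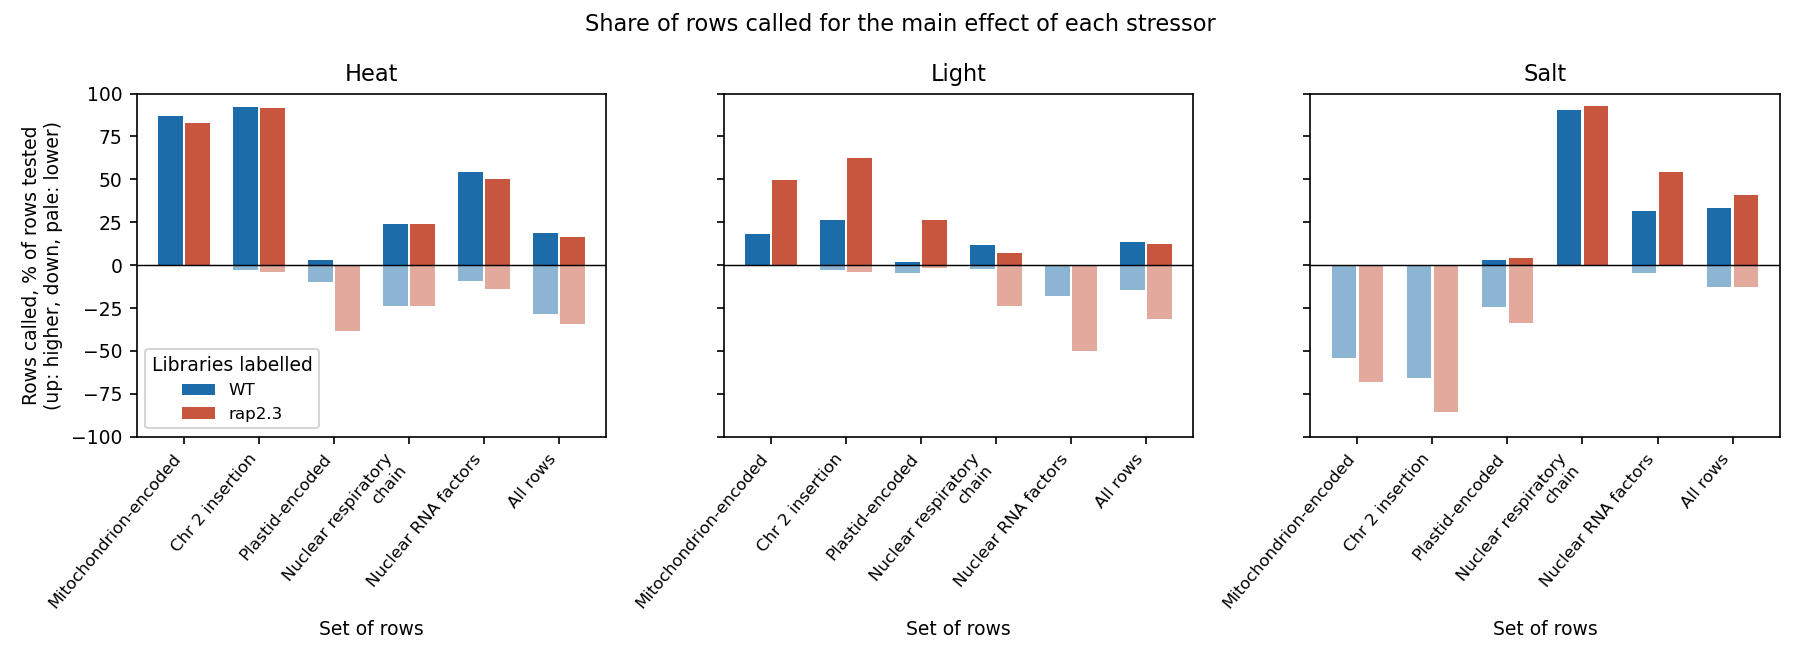
Percent of tested rows called higher (bars up) or lower (pale bars down) for the main effect of heat, light and salt in each genotype, for the mitochondrion-encoded members, the rows of the mitochondrial insertion in chromosome 2, the plastid-encoded rows, 2 nuclear lists and all rows. With heat the mitochondrion-encoded rows go up, 66 of 76 in WT, and with salt down, 41 of 76, while 38 of the 42 nuclear respiratory chain rows go up with salt.

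Arabidopsis carries a large copy of mitochondrial DNA in chromosome 2, which limits what a value can be assigned to. In the TAIR10.1 sequence 14 of the named mitochondrial genes aligned over 100% of their length to chromosome 2, at 99.84% to 100% identity. The 50 rows of the region from AT2G07667 to AT2G07839 that passed the level rule moved mostly in the same direction. With heat 35 of 38 tested were higher in WT, where 18.8% of all rows were. With salt 25 were lower, where 12.5% of all rows were. With median-of-ratios scaling 35 were higher and 1 lower with heat. How many of these rows passed the filter only through heat libraries was not determined, so the counts are a description. AT2G07698, the copy of ATP1 (ATMG01190), was at a mean of 1.60 FPKM in WT CT and 10.5 under HS, beside 1.33 and 9.07 for the member. Over the 48 libraries the log2 values of the pair correlated with r = 0.993, those of ATP8 (ATMG00480) and AT2G07707 with r = 0.999 and those of ATP9 (ATMG01080) and AT2G07671 with r = 0.987. These are among the closest of 35 pairs, over which r ran from 0.233 to 0.999 with a median of 0.82. Some members stood far from their copy in level: under EL+HS in WT, ATMG00620 was at a mean of 129 FPKM and its copy AT2G07722 at 7.80, ATMG01220 at 37.2 and AT2G07798 at 0.524, and ATMG00180 at 7.81 and AT2G07815 at 1.201. In contrast ATMG01150 was at 1.04 FPKM and AT2G07701 at 30.2. Each pair shares libraries and sequence, and how reads that match both places were assigned is not given in the sources used here, so transcripts of the mitochondrial and the nuclear copy cannot be told apart. Within the mitochondrial set, ATMG00440 and ATMG01140 held identical values in all 48 libraries, and ATMG00430 and ATMG01150 agreed within 10% in all 48, so each pair counts as 1 signal.

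**Figure D5:**
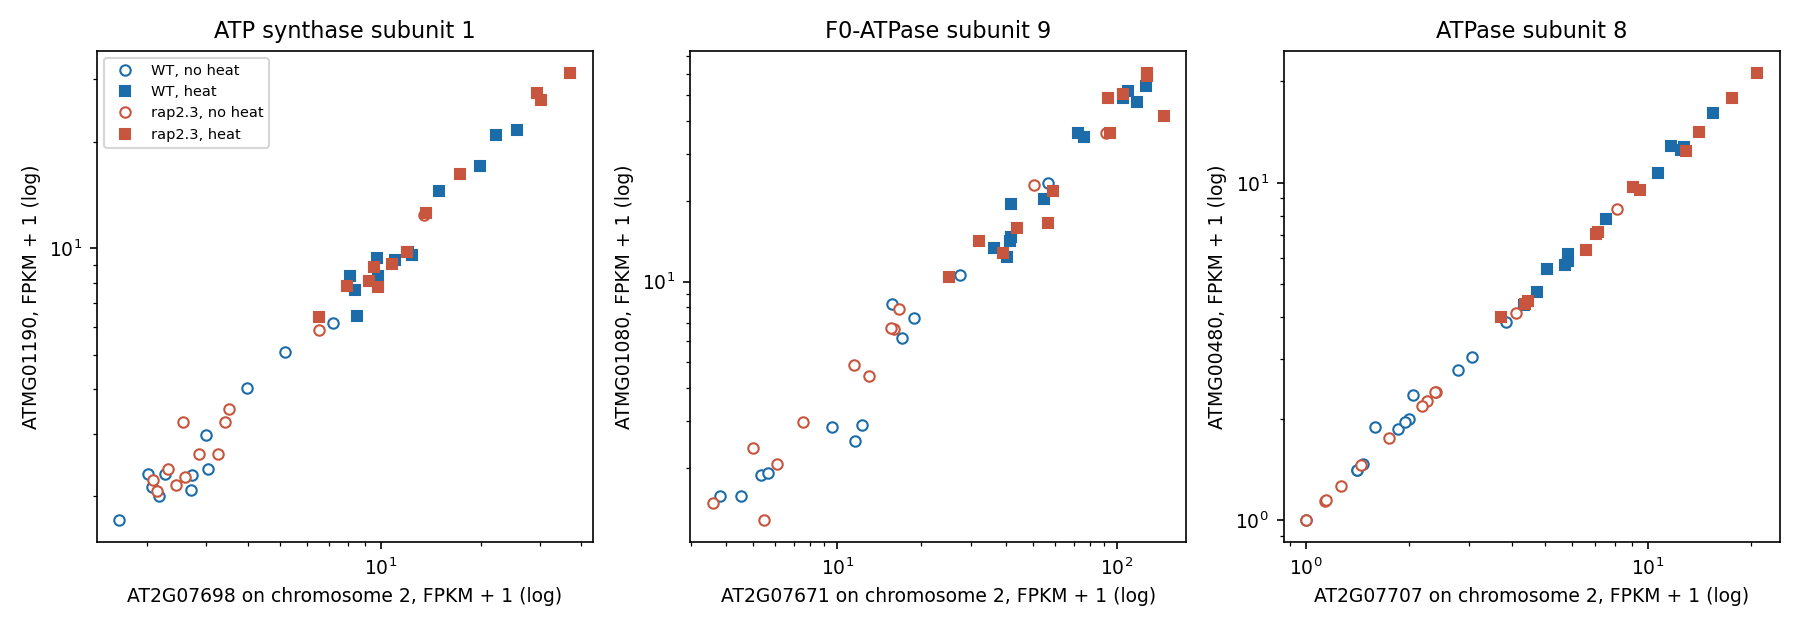
FPKM + 1 (log axes) of ATMG01190, ATMG01080 and ATMG00480 against their copies on chromosome 2 in the 48 libraries, heat libraries as filled squares and the others as open circles, coloured by genotype. These 3 pairs are among the closest of 35, and member and copy lie along 1 line in each panel, with r of 0.993, 0.987 and 0.999 on the log2 scale.

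The genotypes were compared over all 48 libraries, and genotype and table of values cannot be told apart. At EL+HS 9 of the 98 members were higher in the libraries labelled rap2.3 and 0 lower, where 0.417% of all rows were called higher and 6.97% lower. ATMG00030 had the largest difference, 2.72 ± 0.77 (limma adjusted p = 0.0284). It was at 8.74, 0 and 0 FPKM in WT and at 12.2, 13.7 and 13.3 in rap2.3, without overlap. ATMG00430 was at 1.38, 0.854 and 0.885 FPKM in WT and at 4.64, 2.06 and 5.94 in rap2.3, a difference of 1.28 ± 0.32. The others called were ATMG00450, ATMG00470, ATMG00510, ATMG00890, ATMG01060, ATMG01150 and ATMG01360, by 0.67 to 1.35. Of the 9, ATMG00450, ATMG00470, ATMG00510, ATMG00890 and ATMG01060 did not reach the filter on the WT libraries alone, which favours a higher value in rap2.3. This leaves 4 calls among the 76 members that did, of which ATMG00430 and ATMG01150 are 1 signal. With a pseudocount of 0.1 the count of 9 was 2, and with a replicate block within each treatment it was 18. It was 1 without WT replicate 3, 3 without rap2.3 replicate 3 and 4 without rap2.3 replicate 1 or replicate 2. None of the 16 members named from the notes was among the 9. The lists of complexes used here place ATMG00510 in complex I and ATMG01360 in complex IV. ATP1 (ATMG01190) at 26.3, 25.3 and 30.2 FPKM in rap2.3 lay above its WT values of 16.1 to 20.6, with a log2 difference of 0.51 ± 0.32. In all, 29 of the 98 members had every rap2.3 EL+HS library above every WT library and 0 below, where 4.11% of all rows were above and 21.3% below. At S+HS the order was the other way for some: 10 members had every rap2.3 library below every WT library and 0 above, where 5.56% of all rows were below. Of the 98 members 81 had their highest group mean in rap2.3 EL+HS and 11 in WT EL+HS. A member could enter the set through its highest group, and 22 of the 98 did not reach the filter on the WT libraries. The counts of 29 and 81 are thus a description, and the highest group was not determined for all rows.

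At each of the other 7 treatments 0 members were called (limma, between 1 and 8 at an unadjusted p under 0.05), where 0.0657% of all rows were at CT, 0.155% at EL, 0.0188% at HS and 0.0234% at S. For S+EL the share was 0.0234%, for S+HS 0.0281% and for S+EL+HS 0.061%. On average over the treatments 1 member, ATMG01370, was higher in rap2.3, by 1.10, where 0.858% of all rows were called higher. It was at 16.7, 39.3 and 11.01 FPKM in WT EL+HS and at 62.7, 64.3 and 114 in rap2.3 EL+HS, without overlap. This call was lost without rap2.3 S+HS replicate 2, WT EL replicate 1 or WT S+EL+HS replicate 3. The count was 2 or 3 without rap2.3 CT replicate 2, rap2.3 EL replicate 1, rap2.3 EL+HS replicate 1, rap2.3 HS replicate 3, rap2.3 S+EL+HS replicate 2 or WT EL+HS replicate 1. The heat and salt effects were not found to differ between the genotypes for any member (limma interaction, 0 of 98 called for each, 2 and 6 at an unadjusted p under 0.05), and 0% of all rows were called. For ATP9 (ATMG01080) the difference between the genotypes in the heat effect was -0.24 ± 0.31, and for ATP1 (ATMG01190) it was -0.06 ± 0.23.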

How the data were processed

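Total RNA was sequenced in pairs of reads on an Illumina NovaSeq, per the labels' protocols. The deposited FPKM came as a separate table for each genotype. HISAT2, Cufflinks and TAIR10 are named in the submitters' processing notes, without versions. Strand use, library selection and the handling of reads that match several places are not given in the sources used here. Counts and depth are unknown, so no interval based on depth is given, and the precision rests on 3 replicates per group.

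Rows of a repeated identifier were summed. The log2(FPKM + 1) values entered limma 3.58.1 (R 4.3.3; lmFit, eBayes with trend) with a mean for each group, over rows at 1 FPKM in at least 3 libraries of the fit: 20744 in WT, 20592 in rap2.3 and 21322 over both. An adjusted p under 0.05 was called. The limma steps were tested on simulated data. The summed level was planned as FPKM times gene length; no lengths were at hand for these rows, so a share of summed FPKM is given. Members with a role could all be named. Others were named for the highest mean FPKM, for the largest called differences in WT or on average between genotypes, or after their values were seen (those called between genotypes at EL+HS and in the contrast of heat between light levels, and pairs of repeats). Members and lists were chosen with earlier results of these data known, and the contrasts of heat between salt or light levels were added after the main effects had been seen, as were the counts over members that pass the filter without the libraries where they are high.

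The replicate numbers paired the libraries of the genotypes at EL, where deviations of same-numbered libraries correlated at 0.520, 0.103 and 0.414. In every other comparison at least 1 correlation was at or under 0.1. Alignments used BLAST+ 2.17.0+ and RefSeq TAIR10.1, and figures matplotlib 3.10.9 in Python 3.11.15.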

Additional observations from a re-analysis of the deposited data

Results flagged for a closer look

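In the libraries labelled rap2.3 the heat response of 6 members was larger in excess light than in low light, by a limma contrast of the responses themselves (6 of 87 tested, near the 4.51% of all rows called higher in it). None of the 6 passed the level filter on the 12 libraries without heat. ATMG00060, ATMG00140, ATMG00430 and ATMG01150 did not pass it on the 18 libraries without heat in excess light either. The filter favours a larger difference for them, and the values are a description. The differences on the log2 scale were 0.80 for ATMG00410 (ATP6-1, adjusted p = 0.0303), 1.36 for ATMG00060 (adjusted p = 0.0143), 1.28 for ATMG00140 (adjusted p = 0.0400), 1.93 for ATMG01210 (adjusted p = 0.0412), 1.44 for ATMG00430 (adjusted p = 0.00724) and 1.46 for ATMG01150 (adjusted p = 0.00706), the last 2 being 1 signal. ATMG00410 was at 0.487, 0.703 and 2.38 FPKM under EL, at 9.20, 9.77 and 7.88 under EL+HS and at 4.69, 3.30 and 2.31 under HS. ATMG00060 was at 0, 0 and 0.517 FPKM under EL and at 3.56, 3.03 and 11.5 under EL+HS. In WT 0 members were called in this contrast (2 at an unadjusted p under 0.05), and whether the genotypes differ in it was not tested. The count in rap2.3 was 12 without EL replicate 3, 10 without HS replicate 1, and 3 without EL replicate 2, HS replicate 3, S replicate 1, S+EL replicate 2 or S+HS replicate 3.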

How the results depend on the processing

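Alternatives were a pseudocount of 0.1, no filter, median-of-ratios scaling, the replicate block, and leaving out each library. No call of a named member changed direction in any of them. Of 273 gene calls 197 held in all their alternatives, including 45 of 47 for heat and 34 of 37 for salt as main effects, but 0 of 10 between genotypes. Counts of members called for heat over all treatments ran from 59 to 67 in WT and 68 to 74 in rap2.3 without single libraries, and for salt from 36 to 46 and 53 to 61. Rescaling moved the median of all rows by up to 0.21 on the log2 scale and no count of members by over 1.5 times. With a pseudocount of 0.1 the counts were 7 for WT S, 7 for WT S+EL, 10 for rap2.3 S, 6 for rap2.3 S+EL, 8 for light in WT, 3 for the heat contrast between light levels in rap2.3, 2 between genotypes at EL+HS and 0 on average. Without a filter they were 1 for WT S and 0 for rap2.3 S+EL. With the replicate block rap2.3 S+EL gave 0, and with a block within each treatment the genotypes gave 18 at EL+HS, 1 at S+EL+HS and 0 at EL, so pairing changed no call at EL. The cause of these changes was not tested. Without single libraries, counts ran from 1 to 9 for WT EL, 2 to 24 for rap2.3 EL, 1 to 2 for WT S, 1 to 3 for WT S+EL, 0 to 3 for rap2.3 S, 0 to 2 for rap2.3 S+EL, 7 to 25 for light in WT, 1 to 8 between genotypes at EL+HS and 0 to 3 on average, 0 to 1 at HS and at S+EL+HS, 3 to 12 for the heat contrast between light levels in rap2.3 and 0 to 1 in WT, and 0 to 1 for heat between salt levels in each genotype. Leaving ATMG00020, ATMG01380 and ATMG01390 out changed the members' mean percent of FPKM from 0.0109 to 0.00684 in WT CT, 0.119 to 0.0990 in WT EL+HS, 0.00773 to 0.00364 in WT S, 0.00929 to 0.00525 in WT S+EL, 0.0128 to 0.00922 in rap2.3 CT, 0.253 to 0.155 in rap2.3 EL+HS, 0.00971 to 0.00441 in rap2.3 S and 0.00850 to 0.00458 in rap2.3 S+EL. The share of FPKM times length was not run. Without counts, values near 0 have unknown precision.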
